A study of Mus musculus with 48 samples.

Results

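The solute carrier genes were the 150 protein-coding genes with a symbol that starts with Slc and a digit whose average over the 12 libraries reached 5 CPM, the unit in which a gene's count is scaled to the total of its library. They were selected on this mean level from the 371 such genes of the deposited count tables, which list 50600 genes in all, and 9985 of all listed genes reached the same mean. Of the 221 solute carrier genes below the limit, 45 had 0 counts in every library. The values that chose them, the levels, are given below as a description with no test, and the mean takes in treated and non-treated libraries alike. It was reached through the N6L-treated libraries by 7 members whose mean over the non-treated libraries was under 5 CPM (Slc17a5, Slc22a4, Slc25a14, Slc35a2, Slc35e3, Slc39a10 and Slc45a3), and through the non-treated libraries by 2 whose mean over the N6L-treated ones was (Slc25a48 and Slc9a2), so their differences between treatments are in part fixed by the choice. The members just inside the limit were Slc35e3 at 5.03 CPM and Slc25a14 at 5.04 CPM, and the genes just outside it were Slc2a8 at 4.999 CPM and Slc30a6 at 4.77 CPM.

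The libraries came from mPDAC cells, a pancreatic ductal adenocarcinoma cell line from an 8-week-old mouse of a mixed FVB/N and C57BL6 background, and all cultures were of this 1 line. N6L, a pseudopeptide that antagonises the nucleolar and cell surface protein nucleolin, was added at 50 µM for 48 h to 3 cultures (N6L 1, 2 and 3), and 3 cultures were left non-treated (NT 1, 2 and 4). From each lysate an aliquot of the cytoplasm and the pooled polysomal fractions of a sucrose gradient were sequenced, so that 4 groups of 3 libraries were obtained: non-treated cytoplasm, non-treated polysomes, N6L cytoplasm and N6L polysomes. The question was which mRNAs changed in amount in the cytoplasm and which in their recruitment into polysomes, and the ratio of these changes is called the translational index (TI).

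Solute carriers are membrane proteins that move amino acids, sugars, nucleotides, vitamins, metals and ions across membranes by facilitated diffusion or coupled to the gradient of another ion, and a family number in the symbol groups proteins related in sequence. Most families work at the cell surface or in the membranes of the secretory pathway and lysosomes, and the large family 25 works in the inner membrane of mitochondria, where it exchanges ADP for ATP and brings in phosphate, substrates and cofactors. Growing tumour cells depend on carriers for glutamine, essential amino acids, cystine, glucose and lactate, and the carriers of neutral amino acids that pair with the heavy chain Slc3a2 supply leucine to the mTORC1 pathway.

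The depth was high for all 150 genes. Total counts, after the 4 technical replicates of each library were summed, lay between 21178243 and 32662204 in non-treated cytoplasm, between 19519911 and 37612780 in non-treated polysomes, between 23576921 and 44972333 in N6L cytoplasm and between 26642830 and 30474881 in N6L polysomes, and every member had counts in each of the 12 libraries. All 150 members passed the filter on low counts that left 13889 genes for the tests. Keratin genes of ductal epithelium were abundant (Krt18, Krt8 and Krt19 had means of 3455, 2760 and 1605 CPM), and 6 of 7 ductal markers exceeded 1 CPM, while Epcam stood at 0.115 CPM. The acinar markers Cpa1, Cela2a, Amy2a2 and Ptf1a and the islet markers Ins1, Ins2 and Gcg had 0 counts in all 12 libraries. The 4 fibroblast markers summed to at most 1.20 CPM and the 2 endothelial ones to at most 0.853 CPM in the mean of any group, and of the 3 leukocyte markers only Cd68 exceeded 1 CPM. In such bulk samples a lower level of an mRNA in all cells and fewer cells that hold it cannot be told apart, and a value gives the abundance of an mRNA among all others of its library. The cultures are labelled by number only, so p-values measure the spread between these cultures.

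The solute carrier mRNAs together held 0.848% ± 0.0197 (SD, n = 3) of the counts in non-treated cytoplasm, 0.801% ± 0.0370 in non-treated polysomes, 0.859% ± 0.0235 in N6L cytoplasm and 0.862% ± 0.0224 in N6L polysomes. In the cytoplasm, the mitochondrial family 25 held a lower share of the library totals after N6L and the remaining carriers a higher one. The 37 members of family 25 held 0.398, 0.408 and 0.431% in the non-treated cultures and 0.362, 0.351 and 0.351% in the N6L-treated cultures, and the other 113 members held 0.447, 0.461 and 0.399% and then 0.523, 0.502 and 0.489%. Neither pair of ranges overlapped. With library totals as the scale, the median log2 fold change of all genes in the cytoplasm was 0.19. Divided also by the TMM scaling factors used in the tests below, the ranges of family 25 stayed apart and those of the other members overlapped. In the polysomes the shares of family 25 did overlap, with 0.432, 0.434 and 0.441% and then 0.386, 0.412 and 0.436%, whereas the other members held 0.365, 0.406 and 0.325% and then 0.450, 0.460 and 0.441%. The sum for family 25 weighs its abundant members most, among them Slc25a39, Slc25a4, Slc25a3 and Slc25a5, and over its 37 members the median log2 fold change was -0.06, with 14 above 0 and 24 not past the limit given below. With library totals alone this median was 0.09, beside 0.19 for all genes. Transcripts of the mitochondrial genome itself took a smaller share of the N6L cytoplasm, 0.184% ± 0.0604 against 0.752% ± 0.266 (SD, n = 3). The non-treated cultures ranged from 0.454 to 0.966%. Mitochondria had been spun out of the lysates, and how far their removal set this share was not tested. The part of this share in the levels of the carriers was not tested either.

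Expression was concentrated in a few mitochondrial carriers. The 4 most abundant members held 27.5% of all solute carrier counts, the 10 most abundant 42.9% and the 20 most abundant 58.1%. On the scale of CPM per kb of transcript, which allows levels to be compared between genes, Slc25a39, which imports glutathione into mitochondria, was first (465), before the ADP/ATP carrier Slc25a4 (364), the phosphate carrier Slc25a3 (309.9) and the ADP/ATP carrier Slc25a5 (269.6). The citrate carrier Slc25a1 (131), the amino acid carrier heavy chain Slc3a2 (103), the scaffold protein Slc9a3r1 (101), the dicarboxylate carrier Slc25a10 (95.3), the scaffold Slc9a3r2 (84.9) and the nucleobase carrier Slc43a3 (78.2) followed. In non-treated cytoplasm, Slc25a39 (482 ± 73.7, SD, n = 3) and Slc25a4 (449 ± 59.2) did not differ beyond their spread, nor did Slc25a3 (334 ± 30.6) and Slc25a5 (305 ± 44.7). In N6L cytoplasm the first 4 had 304 ± 18.8, 247 ± 7.31, 237 ± 11.3 and 195 ± 18.9 CPM per kb, and in N6L polysomes 533 ± 171, 284 ± 27.5, 309.9 ± 30.5 and 239.5 ± 5.31, where Slc25a3 stood above Slc25a4 by less than their spread. Slc9a3r1, Slc9a3r2, Slc7a6os and Slc4a1ap carry a solute carrier symbol without being carriers, and they were kept because the rule takes symbols alone.

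In the cytoplasm, 40 of the 150 members (26.7%) passed the limit for a difference between treatments, an FDR under 0.05 in the quasi-likelihood test of edgeR with Benjamini-Hochberg adjustment over 13889 genes. Of all genes tested, 28.3% did. The mRNAs of 24 rose, among them carriers of zinc, iron, taurine, aromatic amino acids and sulphate, and those of 16 fell, among them the ADP/ATP and phosphate carriers of mitochondria. The shares in all genes tested were 14.5% higher and 13.8% lower. The median log2 fold change of the members was 0.02 (quartiles -0.26 and 0.44), beside 0.04 for all genes (-0.07 beside 0.01 with the offset described below), and 62 members, 41.3% of them, had an unadjusted p under 0.05, against 42.5% of all genes. Of the 141 members that reached 5 CPM in both treatments, 22 rose and 14 fell. With library totals alone, a scaling that moved the median of all genes to 0.19, 31 rose and 12 fell (18.6% and 9.81% of all genes). With DESeq2 24 rose and 25 fell (15.3% and 17.8% of all genes), and with an offset for transcript length and GC content 25 rose and 31 fell (14.2% and 14.3% of all genes). For 81 members, 54% of them, the ranges of treated and non-treated cultures did not overlap, as was so for 54.9% of all genes. The 24 higher mRNAs had a median transcript length of 4091 bases and the 16 lower ones 1908 bases, and the log2 fold change correlated with length by a Spearman rho of 0.41 across the 150 members and 0.51 across 13867 genes, a description whose part in the calls was tested only by the offset. The count depended on single cultures, and 21, 22 and 21 members passed without NT cultures 1, 2 and 4. These were 14%, 14.7% and 14% of the members, against 16%, 22.4% and 15.5% of all genes. Without N6L culture 2, 9 members passed (6%, against 9.24% of all genes). These 9, among them Slc16a10, Slc25a25, Slc25a33, Slc25a4, Slc25a5, Slc29a2, Slc39a10 and Slc50a1, passed with each culture left out in turn. Slc39a10 was a member through its values after N6L, so its rise was in part fixed by the choice.

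Among the 37 mitochondrial carriers, 5 rose and 8 fell in the cytoplasm, and 24 did not pass the limit. Of all genes tested 14.5% rose and 13.8% fell, and the counts by cargo, here and below, were not tested against these shares. Both ADP/ATP carriers fell. These proteins export the ATP made by oxidative phosphorylation in exchange for cytosolic ADP. Slc25a4 (chr8:46206797-46211284, minus strand, GRCm38) had 795, 803 and 996 in the non-treated cultures and 475, 463 and 491 in the N6L-treated ones (CPM scaled by TMM, as in all values that follow). All 3 treated cultures lay below the lowest non-treated one, and the mean changed by -0.86 on the log2 scale (SE 0.14, edgeR FDR = 0.00194). Slc25a5 (chrX:36795651-36798807, plus strand) had 339, 354 and 442 in the non-treated cultures and 269, 229 and 228 in the N6L-treated ones, again with no overlap (log2 fold change -0.65 ± 0.15 (SE), edgeR FDR = 0.00714). Slc25a3 (chr10:91116574-91124059, minus strand), which brings in the phosphate for the same reaction, had 491, 535 and 589 in the non-treated cultures and 403, 369 and 375 in the N6L-treated ones (log2 fold change -0.49 ± 0.13 (SE), edgeR FDR = 0.0162). The call of Slc25a3 was lost without N6L culture 2 or NT culture 4, whereas Slc25a4 and Slc25a5 stayed past the limit with each culture left out in turn.

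Slc25a25 and Slc25a23, which exchange ATP-Mg for phosphate across the inner membrane, rose in the cytoplasm. Slc25a25 (chr2:32414487-32451445, minus strand) had 61.9, 66.4 and 45.2 in the non-treated cultures and 104, 109.9 and 117 in the N6L-treated ones. The groups did not overlap, and the mRNA rose by 0.93 ± 0.18 (log2, SE, edgeR FDR = 0.00382). Slc25a23 (chr17:57043711-57059863, minus strand) had 33.4, 35.4 and 50.7 in the non-treated cultures and 70.9, 73.4 and 78.2 in the N6L-treated ones (log2 fold change 0.90 ± 0.21 (SE), edgeR FDR = 0.00854), also with no overlap, and its call was lost without N6L culture 2. Slc25a24, which exchanges the same solutes and was named after its values were seen, had 159, 158 and 116 in the non-treated cultures and 226, 235 and 189 in the N6L-treated ones, all treated values above the non-treated ones, without passing the limit (log2 fold change 0.59 ± 0.23 (SE), edgeR FDR = 0.0669). The plot of these 6 carriers shows the same order of the treatments in the polysomes for all except Slc25a24, whose groups overlapped there.

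**Figure D1:**
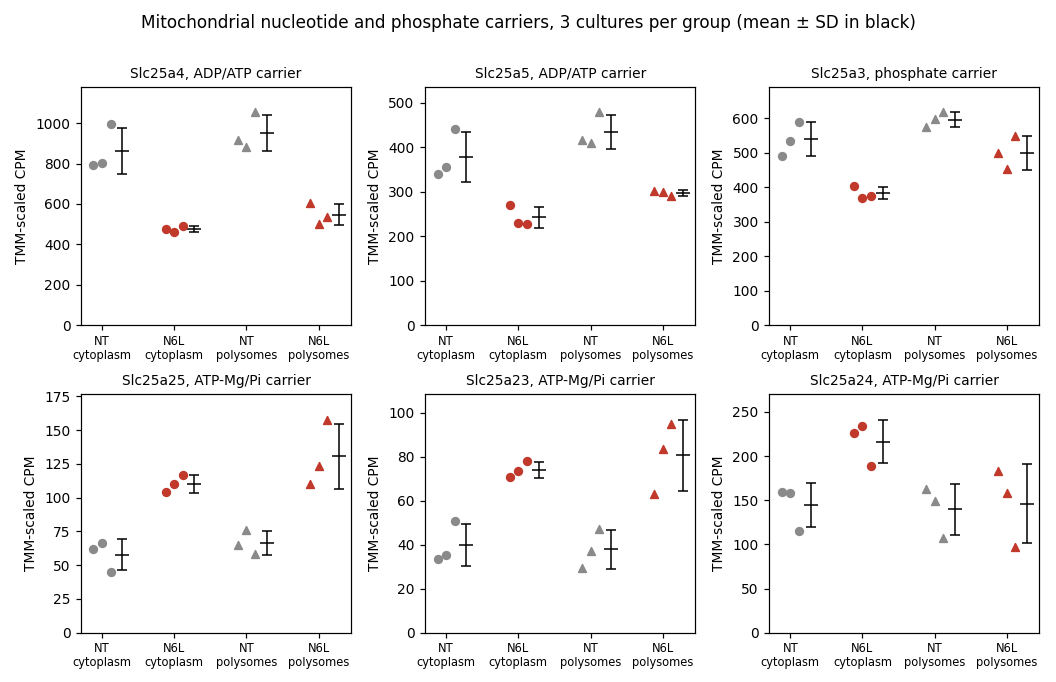
TMM-scaled CPM (vertical axis) of the ADP/ATP carriers Slc25a4 and Slc25a5, the phosphate carrier Slc25a3 and the ATP-Mg/Pi carriers Slc25a25, Slc25a23 and Slc25a24 in each culture (points) of the 4 groups, with the mean ± SD in black. In the cytoplasm the N6L-treated cultures lie below the non-treated ones in the upper 3 panels and above them in the lower 3, and in the polysomes Slc25a24 overlaps.

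Because the members of each of these pairs moved together, the 250 bases before a RefSeq transcription start of the 4 genes are shown (GRCm38.p6, 5′ to 3′ on the strand of the gene). RefSeq promoters were found for 114 of the 150 members. The capitals mark matches on either strand to the cAMP response element TGACGTCA, to the antioxidant response element core TGACNNNGC or to the CArG box bound by serum response factor, and the E-box CACGTG, the amino acid response element TGATGNAA and the Egr site GCGTGGGCG, also searched, had no match in them.
Slc25a25, start 1 (chr2:32451471-32451720, minus strand): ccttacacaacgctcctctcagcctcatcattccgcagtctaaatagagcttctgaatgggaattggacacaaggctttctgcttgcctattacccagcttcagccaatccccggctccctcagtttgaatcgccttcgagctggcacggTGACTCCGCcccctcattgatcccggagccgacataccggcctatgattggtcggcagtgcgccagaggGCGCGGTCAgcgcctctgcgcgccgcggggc
Slc25a25, start 3 (chr2:32424067-32424316, minus strand): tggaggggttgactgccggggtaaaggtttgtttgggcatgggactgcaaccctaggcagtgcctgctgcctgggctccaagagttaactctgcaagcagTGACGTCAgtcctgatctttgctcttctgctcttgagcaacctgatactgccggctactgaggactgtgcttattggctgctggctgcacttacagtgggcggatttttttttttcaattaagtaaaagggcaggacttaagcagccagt
Slc25a23 (chr17:57059864-57060113, minus strand): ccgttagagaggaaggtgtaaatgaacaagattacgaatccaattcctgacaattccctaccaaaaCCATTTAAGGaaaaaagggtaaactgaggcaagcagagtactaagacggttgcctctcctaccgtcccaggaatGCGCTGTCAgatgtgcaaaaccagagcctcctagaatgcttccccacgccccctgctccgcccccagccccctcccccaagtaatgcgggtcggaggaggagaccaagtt
Slc25a4 (chr8:46211063-46211312, minus strand): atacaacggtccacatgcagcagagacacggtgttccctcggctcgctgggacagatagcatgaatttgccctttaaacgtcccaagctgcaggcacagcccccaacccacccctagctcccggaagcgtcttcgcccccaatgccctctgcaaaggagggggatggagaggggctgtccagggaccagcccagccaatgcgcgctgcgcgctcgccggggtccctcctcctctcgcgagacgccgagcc
Slc25a5 (chrX:36795347-36795596, plus strand): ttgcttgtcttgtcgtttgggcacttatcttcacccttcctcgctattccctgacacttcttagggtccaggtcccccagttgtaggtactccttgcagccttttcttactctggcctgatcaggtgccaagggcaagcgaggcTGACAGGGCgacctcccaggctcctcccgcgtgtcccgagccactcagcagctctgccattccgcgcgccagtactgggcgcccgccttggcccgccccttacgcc
The cAMP response element stood 150 bases before start 3 of the 3 annotated starts of Slc25a25. The window before start 1 held the antioxidant core 2 times and no cAMP response element, and that before start 2, not shown, held no searched motif. The cAMP response element was found in 2 of the 114 members with a promoter, Slc25a25 and Slc25a36, and in 1.77% of all 27025 genes with one and 3.11% of the 10092 tested genes with one. Slc25a23 was the 1 member with a CArG box, which 1.62% of all genes and 1.43% of the tested genes held. The antioxidant core was found in 26 of the 114 members (22.8%), in 11.5% of all genes and in 14.01% of the tested genes, and in neither strand of the Slc25a4 window. Such matches describe the sequence, and binding was not measured.

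The largest increase among all members was that of Slc25a30, a mitochondrial carrier related to the uncoupling proteins, with 17.6, 25.5 and 6.41 in the non-treated cultures and 56, 46 and 46.6 in the N6L-treated ones (log2 fold change 1.58 ± 0.40 (SE), edgeR FDR = 0.0116). All treated cultures lay above the highest non-treated one and NT culture 4 below the other non-treated ones, and the call was lost without N6L culture 2. The branched-chain amino acid carrier Slc25a44 and the orphan Slc25a53 also rose (0.46 and 0.67, log2).

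Other mitochondrial carriers also fell in the cytoplasm. Slc25a33, a carrier of pyrimidine nucleotides, had 65.7, 64.7 and 70.9 in the non-treated cultures and 36.5, 37.7 and 35.9 in the N6L-treated ones (log2 fold change -0.87 ± 0.14 (SE), edgeR FDR = 0.00174), with narrow groups far apart. Slc25a39, the most abundant member, had 749, 734 and 956 in the non-treated cultures and 521, 478 and 539 in the N6L-treated ones. Its groups did not overlap (log2 fold change -0.67 ± 0.21 (SE), edgeR FDR = 0.0283), but the call was lost without N6L culture 2, NT culture 1 or NT culture 4. Slc25a10, the dicarboxylate carrier, had 176, 176 and 260.4 in the non-treated cultures and 139.5, 115 and 125 in the N6L-treated ones (log2 fold change -0.69 ± 0.24 (SE), edgeR FDR = 0.0418), and the call was lost on leaving out any culture except N6L 3. Slc25a47 (6.01, 7.26 and 7.26, then 4.35, 3.72 and 3.92, log2 fold change -0.78 ± 0.21 (SE), edgeR FDR = 0.015) and Slc25a48 (5.59, 8.94 and 8.11, then 4.86, 3.45 and 3.66, log2 fold change -0.92 ± 0.27 (SE), edgeR FDR = 0.0213) were expressed at low levels, and each call was lost without N6L culture 2 or NT culture 2, and that of Slc25a48 also without NT culture 4. Slc25a48 was a member through its non-treated values, so its fall was in part fixed by the choice. The citrate carrier Slc25a1 (log2 fold change 0.01 ± 0.21, SE) and the iron carrier mitoferrin Slc25a37 (-0.10 ± 0.21) did not pass the limit. The count of 5 higher and 8 lower became 8 and 11 with an offset for transcript length and GC content and 5 and 7 when libraries were scaled by their totals alone.

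Of the 14 carriers of zinc and manganese, 2 rose and 1 fell in the cytoplasm (14.5% and 13.8% of all genes). Slc39a10 (chr1:46807544-46892852, minus strand), an importer of zinc at the cell surface, had 4.92, 4.90 and 4.76 in the non-treated cultures and 11.1, 14.6 and 9.89 in the N6L-treated ones. The groups did not overlap (log2 fold change 1.29 ± 0.27 (SE), edgeR FDR = 0.00478), and the call held with each culture left out, but the mean of this gene over the non-treated libraries was 3.54 CPM, so that it was a member through its values after N6L. Slc30a1, which exports zinc from the cell, rose by 0.61 ± 0.18 (log2, SE, edgeR FDR = 0.0204), a call that was lost with the length and GC offset and without N6L culture 2, NT culture 1 or NT culture 2. Slc39a3, also an importer, had 10.2, 12.6 and 11.1 in the non-treated cultures and 7.57, 5.88 and 6.68 in the N6L-treated ones (log2 fold change -0.75 ± 0.20 (SE), edgeR FDR = 0.013), a call lost without N6L culture 2 or NT culture 2. Slc39a14, which carries zinc and iron, had a log2 fold change of -0.32 ± 0.14 and did not pass. It did not pass in 13 of 16 alternatives, whose log2 fold changes ran from -0.68 to -0.18. With the length and GC offset the count of the zinc carriers was 1 higher and 2 lower.

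Of the 6 carriers of iron, copper, magnesium and haem, 2 rose and 1 fell (14.5% and 13.8% of all genes). Slc40a1 (ferroportin, chr1:45908068-45926523, minus strand), the exporter of iron, had 9.28, 12.1 and 10.7 in the non-treated cultures and 19.3, 21.7 and 18.9 in the N6L-treated ones. The treated cultures were close to each other and all above the non-treated ones (log2 fold change 0.90 ± 0.22 (SE), edgeR FDR = 0.0107), and the call was lost without N6L culture 2 or NT culture 1. The magnesium carrier Slc41a1 rose by 0.46 and the haem carrier Slc48a1 fell by 0.67 on the log2 scale. The iron importer Slc11a2 (0.32 ± 0.18, log2, SE) and the copper importer Slc31a1 (0.21 ± 0.17) did not pass the limit.

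Among the 17 carriers of ions, 4 rose and 1 fell (14.5% and 13.8% of all genes). This count became 2 and 4 with the length and GC offset (14.2% and 14.3% of all genes). Slc26a2, a carrier of sulphate, had 99.7, 155 and 119.7 in the non-treated cultures and 250.2, 255 and 229 in the N6L-treated ones (log2 fold change 0.97 ± 0.27 (SE), edgeR FDR = 0.0168), with no overlap, and the call was lost with the offset and without N6L culture 2, NT culture 1 or NT culture 4. The potassium-chloride exporter Slc12a7 rose by 0.74 (log2). Slc9a2, which exchanges sodium for protons, had 10.6, 7.90 and 7.76 in the non-treated cultures and 5.80, 4.93 and 4.94 in the N6L-treated ones (log2 fold change -0.75 ± 0.26 (SE), edgeR FDR = 0.042), and this call was lost without N6L culture 2 and without each NT culture. It was a member through its non-treated values, so its fall was in part fixed by the choice. The sodium-potassium-chloride importer Slc12a2 (0.08 ± 0.22, SE), the sodium-bicarbonate importer Slc4a7 (0.49 ± 0.21) and the phosphate importers Slc20a1 (0.02 ± 0.19) and Slc20a2 (-0.34 ± 0.18) did not pass the limit.

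Of the 20 carriers of amino acids and related solutes, 4 rose and 0 fell (14.5% and 13.8% of all genes). With the length and GC offset 4 rose and 6 fell (14.2% and 14.3% of all genes). Slc6a6, the taurine carrier (chr6:91684053-91759066, plus strand), had 85.1, 101 and 68.3 in the non-treated cultures and 189, 154 and 151 in the N6L-treated ones. The groups were far apart (log2 fold change 0.96 ± 0.25 (SE), edgeR FDR = 0.0127), and the call was lost without N6L culture 2 or NT culture 1. Slc16a10, a carrier of aromatic amino acids (chr10:40033532-40142258, minus strand), had 21.3, 21.8 and 20.4 in the non-treated cultures and 36, 39.2 and 36 in the N6L-treated ones (log2 fold change 0.81 ± 0.16 (SE), edgeR FDR = 0.00355) and passed with each culture left out. Slc7a6 and Slc7a7, light chains that pair with Slc3a2 and exchange arginine and lysine for neutral amino acids, rose by 0.55 and 0.53 (log2). Their calls were lost without N6L culture 2, NT culture 1 or NT culture 4, among others.

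The carriers best known for supplying growing cells, several of which are also targets of the stress factors ATF4 and NRF2, did not pass the limit in the cytoplasm. The log2 fold changes were -0.36 ± 0.15 (SE) for the heavy chain Slc3a2, -0.20 ± 0.17 for its leucine-carrying partner Slc7a5, 0.08 ± 0.23 for the cystine importer Slc7a11, -0.28 ± 0.16 for the glutamine carrier Slc1a5 and -0.19 ± 0.17 for its relative Slc1a4. The neutral amino acid carrier Slc38a2 (0.20 ± 0.24) and the arginine importer Slc7a1 (0.02 ± 0.20) did not pass either. With the offset, Slc3a2 (-0.37), Slc7a11 (-0.43), Slc7a1 (-0.42) and Slc1a4 (-0.36) were among the 6 lower. Of 16 alternatives, Slc3a2 did not pass in 12 (edgeR or DESeq2 FDRs from 0.0147 to 0.303). Slc7a11, Slc7a1 and Slc1a4 did not pass in 15 each, and Slc7a5, Slc1a5 and Slc38a2 in all 16. Slc38a1, another carrier of neutral amino acids, had a mean of 2.62 CPM and was no member.

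Of 8 sugar carriers, 1 rose and 1 fell in the cytoplasm (14.5% and 13.8% of all genes). Slc50a1 fell (42.7, 41.1 and 52.6, then 29.5, 23.9 and 27, log2 fold change -0.76 ± 0.17 (SE), edgeR FDR = 0.00679) and Slc37a3 rose by 0.45, and the call of Slc50a1 was lost with the offset. The glucose carrier Slc2a1, also a target of the hypoxia response, had 86.6, 96.1 and 102 in the non-treated cultures and 90.2, 84.4 and 94.6 in the N6L-treated ones, with overlapping groups (log2 fold change -0.08 ± 0.19 (SE), edgeR FDR = 0.773). Of 3 carboxylate carriers none passed in the cytoplasm, and the lactate carrier Slc16a1 had a log2 fold change of 0.11 ± 0.20 (SE). The glucose carrier Slc2a3 (0.0252 CPM), the lactate exporter Slc16a3 (0.490 CPM) and the zinc carrier Slc39a7 (4.63 CPM) were under the limit of the rule.

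The 12 carriers of lipids and organic ions had 4 higher and 1 lower (14.5% and 13.8% of all genes). Slc22a4, Slc10a7 and Slc22a23 rose by 0.67, 0.60 and 0.51, and Slc22a18 fell by 0.68 (log2), a call that was lost with the offset, with library totals alone and without N6L culture 1, N6L culture 2 or NT culture 2. Slc22a4 was a member through its values after N6L (4.70 CPM over the non-treated libraries), so its rise was in part fixed by the choice. The fatty acid carrier Slc27a4 (0.05 ± 0.20, SE) and the acetyl-CoA carrier Slc33a1 (0.73 ± 0.28) did not pass the limit. Slc33a1 did not pass in 12 of 16 alternatives.

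Among 10 carriers of vitamins, nucleosides and related solutes, 0 rose and 2 fell (14.5% and 13.8% of all genes), and 7 had a log2 fold change below 0. Slc52a2, a carrier of riboflavin, had 10.1, 10.6 and 16 in the non-treated cultures and 6.78, 5.90 and 6.50 in the N6L-treated ones. It showed the largest decrease of all members (log2 fold change -0.93 ± 0.23 (SE), edgeR FDR = 0.0109), and the call was lost without N6L culture 2. Slc29a2, which equilibrates nucleosides across the membrane, had 10.7, 10.3 and 13.7 in the non-treated cultures and 7.72, 5.92 and 6.30 in the N6L-treated ones (log2 fold change -0.80 ± 0.19 (SE), edgeR FDR = 0.00817), and this call held with each culture left out. The nucleoside carrier Slc29a1 (-0.42 ± 0.17, SE), the folate carrier Slc19a1 (-0.39 ± 0.20), the choline carrier Slc44a1 (-0.50 ± 0.18) and the biotin and pantothenate carrier Slc5a6 (0.15 ± 0.23) did not pass. Slc44a1 was near the limit (edgeR FDR = 0.0544) and did not pass in 11 of 16 alternatives. Of 19 carriers of family 35, which bring nucleotide sugars into the Golgi, 2 rose and 1 fell, beside the same shares of all genes. Slc35f5 had 17.3, 18.3 and 14.7 in the non-treated cultures and 24.4, 31.8 and 27.9 in the N6L-treated ones (log2 fold change 0.74 ± 0.20 (SE), edgeR FDR = 0.0147), lost without N6L culture 2, Slc35e2 rose by 0.56, and Slc35b1, which brings ATP into the endoplasmic reticulum, fell by 0.53 (log2). The call of Slc35b1 was lost with the offset, with library totals alone, with no filter on low counts and on leaving out any culture except NT 4. Slc35a1, the carrier of CMP-sialic acid, did not pass (-0.28 ± 0.21).

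**Figure D2:**
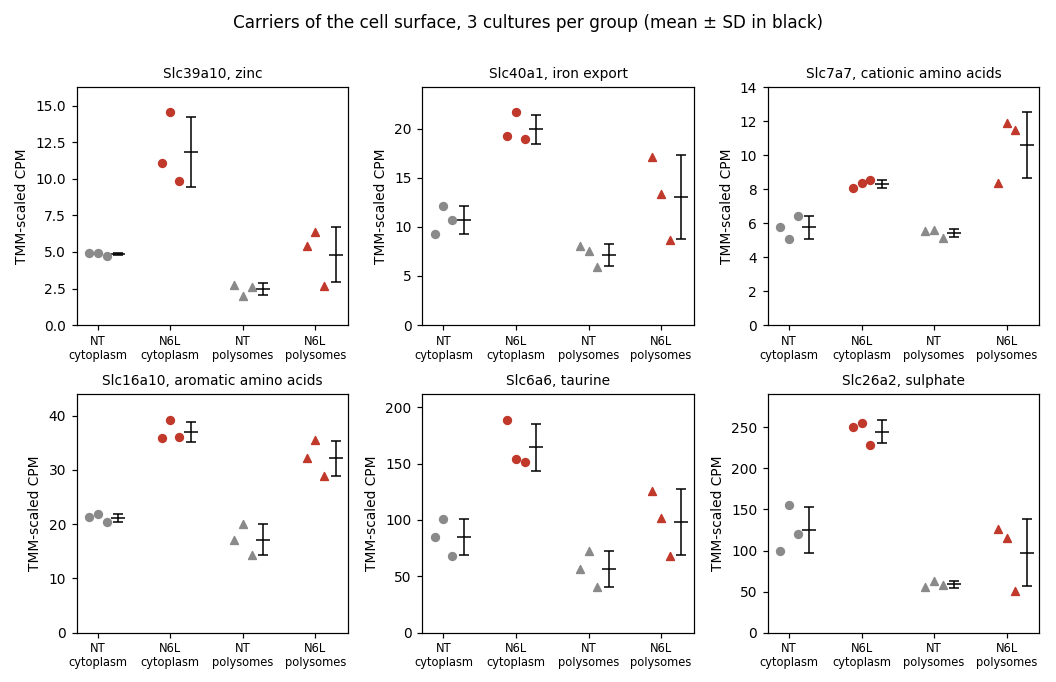
TMM-scaled CPM (vertical axis) of Slc39a10, Slc40a1, Slc7a7, Slc16a10, Slc6a6 and Slc26a2 in each culture (points) of the 4 groups, with the mean ± SD in black. In the cytoplasm all 3 N6L-treated cultures lie above all 3 non-treated ones in each panel.

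In the polysomes, 18 of the 150 members (12%) differed between treatments (edgeR FDR under 0.05), against 9.67% of all genes tested. The mRNAs of 14 rose, where 6.01% of all genes did, and those of 4 fell, where 3.66% of all genes did. Of the 141 members that reached 5 CPM in both treatments, 12 rose and 4 fell. The median log2 fold change of the members was 0.20, beside 0.00 for all genes, and 104 of the 150 were above 0, 69.3% beside 50.1% of all genes. This median was 0.11 with the length and GC offset, beside -0.02 for all genes. It was 0.12 with the replicate number as a block (0.01 for all genes) and 0.28 with library totals alone (0.09 for all genes). The cultures did not overlap between treatments for 46 members, 30.7% of them, against 25.6% of all genes. The count depended on single cultures, with 1 member past the limit without N6L culture 2 (0.667%, against 1.04% of all genes). Without NT culture 1 it was 3 (2%, against 1.44%), and without NT culture 4 it was 8 (5.33%, against 4.44%). With DESeq2 29 passed, against 14.6% of all genes. With the length and GC offset 30 rose and 10 fell (10.2% and 10.7% of all genes), and with only the 2 groups compared 3 passed, all of them higher, against 2.46% of all genes.

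Of the 14 that rose in the polysomes, 9 had also risen in the cytoplasm, and of the 4 that fell, Slc25a4, Slc25a5 and Slc25a33 had also fallen there, whereas 0 members passed the limit in opposite directions. Slc25a23 (29.3, 37.4 and 47, then 63.2, 83.7 and 95, log2 fold change 1.09 ± 0.21 (SE), edgeR FDR = 0.00799) and Slc25a25 (65.3, 75.7 and 58.4, then 110.4, 124 and 157, log2 fold change 0.97 ± 0.18 (SE), edgeR FDR = 0.0064) both rose, and their calls were lost without N6L culture 2 or NT culture 1, as was that of Slc7a7. Slc7a7 had 5.52, 5.57 and 5.12 in the non-treated cultures and 8.37, 11.9 and 11.5 in the N6L-treated ones (log2 fold change 0.97 ± 0.18 (SE), edgeR FDR = 0.006). In these 3 genes the treated cultures lay above the non-treated ones. Slc16a10 had 17.1, 19.98 and 14.3 in the non-treated cultures and 32.1, 35.4 and 28.9 in the N6L-treated ones (log2 fold change 0.91 ± 0.16 (SE), edgeR FDR = 0.00463), and Slc40a1 had 8.06, 7.53 and 5.87 in the non-treated cultures and 17.1, 13.4 and 8.67 in the N6L-treated ones (log2 fold change 0.87 ± 0.23 (SE), edgeR FDR = 0.0288). The call of Slc16a10 was lost without N6L culture 2 and those of Slc40a1 and Slc39a10 on leaving out any culture except N6L 3, and Slc39a10 passed (log2 fold change 0.99 ± 0.28 (SE), edgeR FDR = 0.0406) although N6L culture 3 (2.70) lay below NT culture 1 (2.76).

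The decreases in the polysomes were those of 4 mitochondrial carriers. Slc25a4 had 919, 884 and 1054 in the non-treated cultures and 606, 503 and 533 in the N6L-treated ones (log2 fold change -0.80 ± 0.14 (SE), edgeR FDR = 0.00548), and Slc25a5 had 417, 409 and 478 in the non-treated cultures and 302, 299 and 289.6 in the N6L-treated ones (log2 fold change -0.55 ± 0.15 (SE), edgeR FDR = 0.0308). The treated cultures of both lay below all non-treated ones. Slc25a33 had 83.8, 76.4 and 83.1 in the non-treated cultures and 49.2, 56.3 and 65.1 in the N6L-treated ones (log2 fold change -0.51 ± 0.14 (SE), edgeR FDR = 0.034), and Slc25a40, a relative of the glutathione carrier Slc25a39, had 12, 8.88 and 8.16 in the non-treated cultures and 6.61, 6.31 and 4.13 in the N6L-treated ones (log2 fold change -0.76 ± 0.22 (SE), edgeR FDR = 0.0458), without having passed in the cytoplasm (-0.44 ± 0.22). The call of Slc25a4 was lost without N6L culture 2, and those of the other 3 on leaving out any culture except 1, which was N6L 1 for Slc25a5 and Slc25a40 and N6L 3 for Slc25a33. The phosphate carrier Slc25a3 did not pass (574, 596 and 617, then 498, 451 and 549.5, log2 fold change -0.25 ± 0.13 (SE), edgeR FDR = 0.245), nor did Slc25a39 (896, 874 and 1108, then 633, 859 and 1204, log2 fold change -0.09 ± 0.21 (SE), edgeR FDR = 0.807), whose treated cultures spanned the non-treated range.

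Members past the limit in the polysomes and not in the cytoplasm were the lysosomal histidine and peptide carrier Slc15a4 (0.85), Slc25a45 (0.82), the sugar carrier Slc45a3 (0.82), Slc16a13 (0.70) and the GDP-fucose carrier Slc35c1 (0.66, log2), and all had a cytoplasmic log2 fold change above 0, from 0.24 to 0.54. Slc45a3 was a member through its values after N6L (4.68 CPM over the non-treated libraries), so its rise was in part fixed by the choice. The changes of these 5 and of Slc25a40 are not shown by this to differ between the fractions, since the difference itself, the TI, did not pass for any member. Slc2a1 had 67.1, 88.3 and 58.9 in the non-treated cultures and 83.3, 93.3 and 129.5 in the N6L-treated ones in the polysomes (log2 fold change 0.52 ± 0.19 (SE), edgeR FDR = 0.0958).

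**Figure D3:**
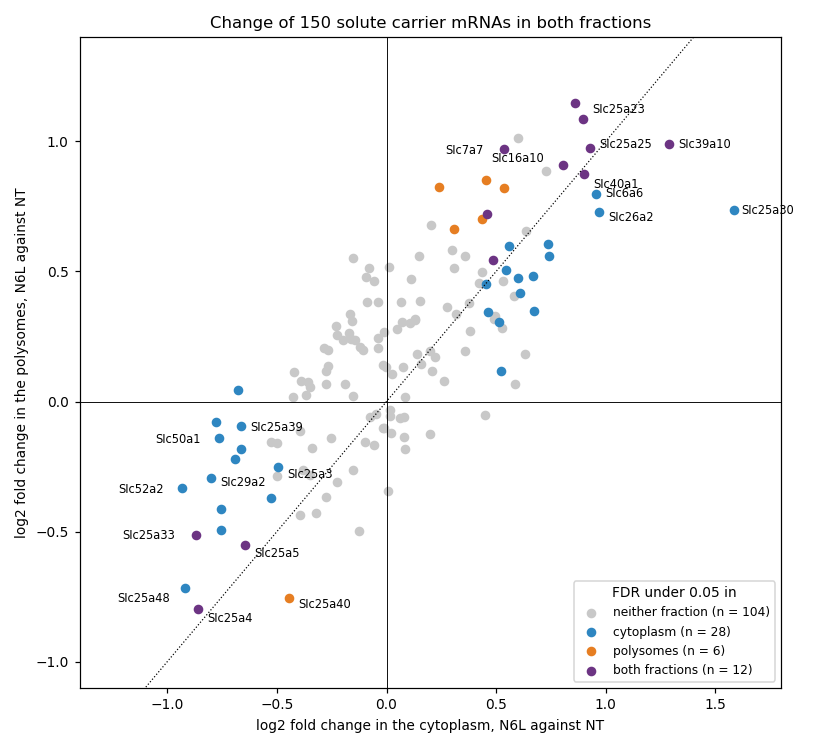
Log2 fold change of the 150 members between N6L-treated and non-treated cultures in the cytoplasm (horizontal axis) and in the polysomes (vertical axis), coloured by the fractions in which the FDR was under 0.05, with a dotted line of equal change. Of the 12 members past the limit in both fractions, 9 lie above 0 and 3 below 0 on both axes.

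**Figure D4:**
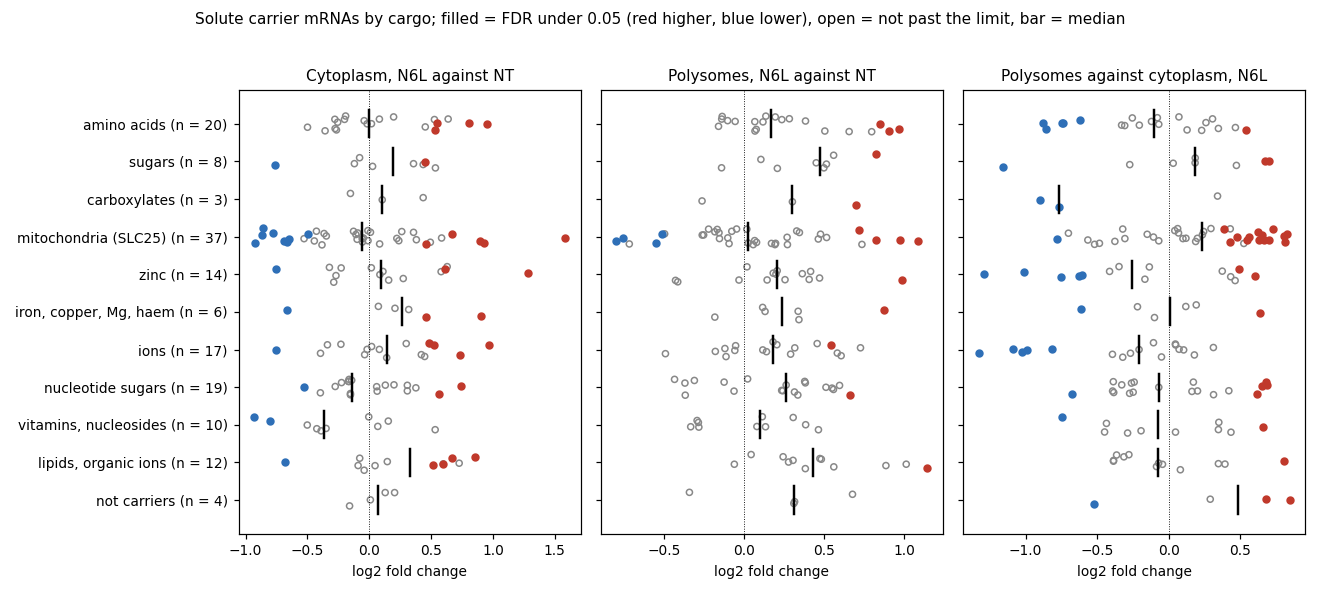
Log2 fold change (horizontal axes) of each member by cargo (rows) for N6L against non-treated cultures in the cytoplasm and the polysomes and for polysomes against cytoplasm in N6L-treated cultures, filled where the FDR was under 0.05, with the median of each group as a bar. The mitochondrial family has 5 higher and 8 lower members in the cytoplasm and 14 higher and 1 lower in the polysomes against the cytoplasm of N6L-treated cultures.

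Between the fractions of non-treated cultures, 0 of the 150 members passed the limit (edgeR), against 0.209% of all genes tested, while 31 members, 20.7% of them, had an unadjusted p under 0.05, against 13.4% of all genes. Members tended to be lower in the polysomes, with a median log2 ratio of -0.12 beside 0.03 for all genes. Both fractions of a culture come from 1 lysate, and with the culture as a block 10 members were lower in the polysomes and 0 higher, 6.67% of the members beside 1.46% of all genes, and DESeq2 called 9 lower, against 2.09% of the 12809 genes to which it gave an adjusted p. The 10 were the myo-inositol carrier Slc5a3 (log2 ratio -1.23), Slc26a2 (-1.09), Slc39a10 (-0.995), the lactate carrier Slc16a1 (-0.96) and its relative Slc16a6 (-0.79), Slc44a1 (-0.96), Slc12a2 (-0.95), Slc38a2 (-0.86), Slc4a7 (-0.85) and Slc35a3 (-0.64).

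In N6L-treated cultures, 51 of the 150 members (34%) differed between the fractions (edgeR FDR under 0.05), against 39% of all genes tested. The mRNAs of 28 were higher in the polysomes, where 18.4% of all genes were, and those of 23 lower, where 20.6% of all genes were. The share of all genes rose with level, and at 20 CPM or more 38.2% of the members passed, against 49.3% of all genes. With the culture as a block, 76 members passed, 38 higher and 38 lower, against 53.7% of all genes, 26.1% higher and 27.6% lower. The members at the lower end were Slc26a2 (log2 ratios -0.99, -1.14 and -2.18 in N6L cultures 1, 2 and 3 and -0.85, -1.30 and -1.04 in NT cultures 1, 2 and 4), Slc39a10 (-1.02, -1.19 and -1.85, then -0.82, -1.27 and -0.86), Slc5a3 (-0.80, -1.25 and -1.42, then -1.08, -1.30 and -1.24), Slc12a2 (-0.82, -1.06 and -1.52, then -0.90, -0.93 and -1.05) and Slc4a7 (-0.87, -1.01 and -1.27, then -0.75, -0.89 and -0.91). Every ratio of these 5 mRNAs was below 0, in treated and non-treated cultures. The fitted log2 ratios in N6L-treated cultures were -1.33 ± 0.27 (SE, edgeR FDR = 0.00497), -1.29 ± 0.26 (FDR = 0.00508), -1.16 ± 0.25 (FDR = 0.00555), -1.09 ± 0.22 (FDR = 0.00502) and -1.03 ± 0.21 (FDR = 0.0051). The exons of Slc5a3 overlap those of Mrps6 on the same strand, so its counts are uncertain to that extent.

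Among those at the higher end were the scaffold Slc9a3r2 (0.38, 0.71 and 1.26, then 0.17, 0.34 and 0.53), the oxoglutarate carrier Slc25a11 (0.42, 0.76 and 1.17, then 0.39, 0.35 and 0.36), Slc25a39 (0.28, 0.85 and 1.16, then 0.26, 0.25 and 0.21) and Slc22a18 (0.91, 0.77 and 0.74, then -0.29, 0.08 and 0.34). Among the treated cultures, N6L 3 had the highest ratio in the first 3 of these genes and the lowest in Slc22a18. Their fitted log2 ratios lay between 0.81 and 0.85, with edgeR FDRs from 0.00558 (Slc25a11) to 0.0176 (Slc9a3r2). Each of these calls was lost with the length and GC offset. Over all alternatives the lowest log2 ratios were 0.19 (Slc9a3r2), 0.25 (Slc25a11), 0.09 (Slc25a39) and 0.15 (Slc22a18). The calls of Slc9a3r2 and Slc25a39 were also lost without N6L culture 2 or 3, and that of Slc22a18 without N6L culture 2. By cargo, 14 of 37 mitochondrial carriers were higher and 1 lower, 0 of 17 ion carriers higher and 5 lower, 2 of 14 zinc carriers higher and 5 lower, and 1 of 20 amino acid carriers higher and 5 lower. Over all genes tested 18.4% were higher and 20.6% lower. The amino acid carriers that were lower were the cystine importer Slc7a11 (-0.88), Slc38a2 (-0.86), Slc36a4 (-0.75), Slc6a6 (-0.74) and Slc7a1 (-0.62), and the higher one was Slc3a2 (0.54). With the length and GC offset 7.21% of all genes were higher and 8.59% lower. The mitochondrial carriers then had 6 higher and 0 lower and the ion and amino acid carriers 0 in either direction. The zinc carriers then had 3 higher and 2 lower. Their median log2 ratio was 0.05 with the offset, beside -0.04 for all genes, and -0.26 without it, beside 0.03. With library totals alone the mitochondrial carriers had 7 and 1, and all members 18 higher and 27 lower (12.7% and 22.5% of all genes). The total count fell to 5 without N6L culture 2 (3.33%, against 8.22% of all genes) and to 13 without N6L culture 3 (8.67%, against 11.7%).

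These differences varied with the length and the GC content of the transcripts. The 23 members lower in the polysomes of N6L-treated cultures had a median length of 5498 bases and a median GC content of 44.2%, and the 28 higher ones 2016 bases and 56.0%, beside 3366 bases and 51.9% for all members. Across the 150 members, the log2 ratio correlated with length by a Spearman rho of -0.70 in N6L-treated and -0.59 in non-treated cultures, and across 13867 genes by -0.63 and -0.48. With GC content the rho was 0.75 and 0.52 across the members and 0.54 and 0.44 across all genes. These are descriptions across genes that share the same libraries. With an offset for length and GC content in each library, 11 members were higher and 4 lower, and Slc4a7 (0.05), Slc5a3 (0.09) and Slc7a11 (0.30) had log2 ratios above 0, while Slc39a10 stayed lower (-0.64, FDR = 0.0394). Of all genes, 7.21% were higher and 8.59% lower with the offset. Slc26a2 (-0.47, FDR = 0.0772) and Slc12a2 (-0.29, FDR = 0.0721) did not pass the limit with the offset alone. With the offset and the culture as a block together, 21 members were higher and 17 lower (13.7% and 17.7% of all genes), and Slc26a2 (-0.49, FDR = 0.00953), Slc12a2 (-0.29, FDR = 0.0188) and Slc39a10 (-0.65, FDR = 0.00504) were among the lower ones.

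**Figure D5:**
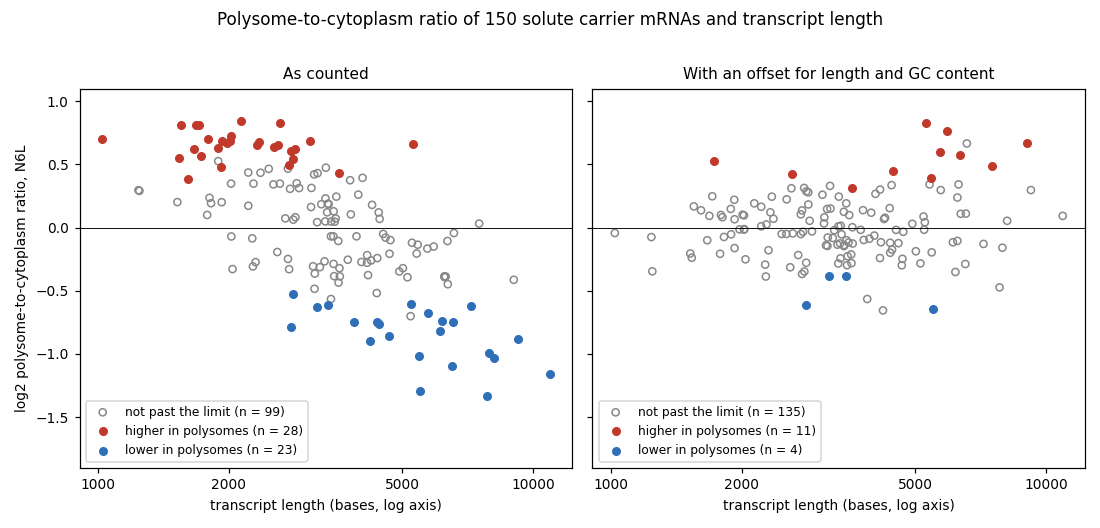
Fitted log2 polysome-to-cytoplasm ratio of the 150 members in N6L-treated cultures (vertical axis) against transcript length in bases (horizontal log axis), as counted and with an offset for length and GC content. The 23 members lower in the polysomes are mostly to the right of the 28 higher ones in the left panel, and 4 lower and 11 higher members pass in the right panel.

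No member had a TI past the limit (edgeR), where the share of all genes was 0% too. At an unadjusted p under 0.05 there were 6 members, 4.00% of them, against 7.73% of all genes, and DESeq2 also called 0. With the culture as a block 21 members, 14% of them, had an unadjusted p under 0.05, against 21.6% of all genes, and 0 passed the limit. The highest log2 TI values were those of Slc22a18 (0.72 ± 0.29, SE), Slc25a47 (0.70 ± 0.29), Slc35b2, which brings the sulphate donor PAPS into the Golgi (0.70 ± 0.25), Slc50a1 (0.62 ± 0.24) and Slc52a2 (0.60 ± 0.32). Of these, Slc22a18, Slc25a47, Slc50a1 and Slc52a2 had fallen in the cytoplasm. The cytoplasmic change is subtracted in the TI, so a fall there raises the TI by construction. Among the lowest were those of Slc25a30 (-0.85 ± 0.55), Slc25a24 (-0.52 ± 0.32), Slc4a4 (-0.50 ± 0.33) and Slc30a4 (-0.45 ± 0.39). The polysome-to-cytoplasm ratios did not overlap between the treatments for 32 members, 21.3% of them, where this held for 29.7% of all genes. For a single gene 3 cultures against 3 allow no p below 0.1 in an exact permutation test, so that no such test is given.

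Carriers that bear other symbols and the partners of carriers were taken from a list. Of 19 such carriers, 17 were tested, and 1 rose and 1 fell in the cytoplasm, where 14.5% of all genes rose and 13.8% fell. Slco2a1, which takes up prostaglandins, rose in the cytoplasm (log2 fold change 0.91 ± 0.16, SE, edgeR FDR = 0.00256) and in the polysomes (0.98 ± 0.16, FDR = 0.00413). Mpc2, a subunit of the mitochondrial pyruvate carrier, fell in the cytoplasm (-1.11 ± 0.21, FDR = 0.00348) and in the polysomes (-0.75 ± 0.21, FDR = 0.0404), whereas its partner subunit Mpc1 did not pass (-0.02 and 0.04). Of 12 partners and regulators, 11 were tested, and 5 rose and 0 fell in the cytoplasm, beside the same shares of all genes. Txnip, which promotes the removal of glucose carriers from the surface, rose by 1.85 (edgeR FDR = 0.00155), Chp1, a calcium-binding protein, by 0.83, the sodium pump subunit Atp1b1 by 0.72, the ubiquitin ligase Nedd4l by 0.62 and the kinase Oxsr1, which phosphorylates the family 12 carriers, by 0.49 (log2). Txnip, Chp1 and Atp1b1 also rose in the polysomes. Of 40 well-known carriers on a further list, 36 were members, and 6 of them rose and 5 fell in the cytoplasm, 3 rose and 2 fell in the polysomes, and 4 were higher and 11 lower in the polysomes than in the cytoplasm of N6L-treated cultures, beside the 18.4% and 20.6% of all genes in this last comparison and the 6.01% and 3.66% in the polysomes.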

How the data were processed

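Poly(A)+ RNA of 12 libraries (6 cultures, cytoplasm and polysomes of the same lysate, 4 technical replicates each) was sequenced with a stranded kit after emetine treatment, removal of nuclei and mitochondria, and sucrose gradients. The authors deposited raw counts per gene, made with bcl2fastq 2.18.0.12, STAR and HTSeq 0.5.3 on mm10 according to the submitters' processing notes. The sources used here give neither the annotation release nor whether strand was used in counting nor how reads with several matches were handled. Genes that share exons with another gene (10 members on the same strand, 40 on the other) and close paralogs such as Slc25a4 and Slc25a5 are uncertain to that extent.

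The technical replicates were summed. For 3 of those of N6L cytoplasm culture 2 the title and the description name different cultures, and they were kept by title. Counts were tested in edgeR 4.0.16 (R 4.3.3, limma 3.58.1) with the quasi-likelihood test, its low-count filter, TMM scaling, means of 4 groups and Benjamini-Hochberg adjustment over 13889 genes at a limit of 0.05. Alternatives were DESeq2 1.42.0, other scalings and filters, a length and GC offset (mgcv 1.9.3), blocks, and each culture left out. The scripts were tested on simulated data. Both fractions of a culture share a lysate, so the culture pairs them. Across genes, Pearson's r between the paired deviations from group means was 0.364, 0.452 and 0.645 for NT cultures 1, 2 and 4, and for N6L cultures 1, 2 and 3 it was 0.0368, 0.199 and 0.229. Symbols and lengths came from GENCODE vM21 (50376 of 50600 identifiers matched) and promoters from RefSeq. The rule for named genes took the 10 largest increases and decreases in the cytoplasm and the 6 largest in the polysomes past the limit without overlap, the 5 at either end of the N6L polysome-to-cytoplasm ratio and of the TI, the 10 highest levels per kb, the genes next to the CPM limit and 40 well-known carriers. Other members past the limit, and Slc25a24, were named after their values were seen, and some genes that the rule takes are not reported here. The members and lists were chosen with earlier results of these data known.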

Additional observations from a re-analysis of the deposited data

Results flagged for a closer look

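In 3 members, 2% of them, every non-treated culture had a log2 polysome-to-cytoplasm ratio on one side of 0 and every N6L-treated culture a ratio on the other side. This was also the case for 366 of all 13889 genes tested, a larger share of 2.635%. The uncoupling-protein relative Slc25a30 had ratios of 0.45, 0.41 and 1.06 in NT cultures 1, 2 and 4 and of -0.18, -0.23 and -0.62 in N6L cultures 1, 2 and 3. Its log2 TI of -0.85 did not pass the limit (edgeR FDR = 0.561, and 0.196 in the fit that blocked on culture). Slc25a47 had ratios of -0.16, -0.34 and -0.05, then 0.09, 0.49 and 0.91, and a log2 TI of 0.70 (edgeR FDR = 0.555, and 0.198 with the block). The nucleoside carrier Slc29a2 had ratios of -0.26, -0.01 and -0.22, then 0.18, 0.32 and 0.54, and a log2 TI of 0.50 (edgeR FDR = 0.555, and 0.2 with the block). Its ratio of -0.01 in NT culture 2 was close to 0.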

How the results depend on the processing

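For the cytoplasm, 64 members (42.7%, against 42.2% of all genes under the same setting) passed with only the 2 groups compared, 23 of the 89 with at least 20 CPM (25.8%, against 31.9% of genes at that level), and 9 to 42 with each culture left out (6% to 28%, against 9.24% to 28.7%). For the polysomes, 29 passed with DESeq2 (19.3%, against 14.6%), 40 with the length and GC offset (26.7%, against 20.9%), 3 with only the 2 groups compared (2%, against 2.46%), 10 of the 89 with at least 20 CPM (11.2%, against 9.85%), and 1 to 21 with each culture left out (0.667% to 14%, against 1.04% to 11.2%). Between the fractions of non-treated cultures, where 0 passed, 9 passed with DESeq2 (6%, against 2.19%), 2 with the offset (1.33%, against 0.569%), 8 with no filter on low counts (5.33%, against 2.5% of 25915 genes), 3 with only the 2 groups compared (2%, against 1.06%), 10 with the culture as a block (6.67%, against 1.46%), 22 with that block and the offset together, chosen after seeing the data (14.7%, against 3.61%), and 0 to 9 with each culture left out (0% to 6%, against 0% to 2.38%), the 9 without N6L culture 3. Between the fractions of N6L-treated cultures, 15 passed with the offset (10%, against 15.8%), 76, 38 higher and 38 lower, with the culture as a block (50.7%, against 53.7%), 38, 21 higher and 17 lower, with that block and the offset together (25.3%, against 31.4%), and 5 to 58 with each culture left out (3.33% to 38.7%, against 8.22% to 41.8%). Of the 89 with at least 20 CPM, 34 passed there (38.2%, against 49.3% of genes at that level). Members whose ratios did not overlap between treatments numbered 36 to 80 (24% to 53.3% of them) with each culture left out, beside 33.7% to 59.1% of all genes, where fewer cultures make overlap rarer. Of the 141 members that reached 5 CPM in both treatments (chosen after seeing the data), 36 passed in the cytoplasm, 16 in the polysomes and 50 between the fractions of N6L-treated cultures. Over all genes tested, with no such limit on their level, the shares were 28.3%, 9.67% and 39%. With the offset, and with the block and the offset, the log2 ratios in N6L-treated cultures reversed for Slc25a1 (-0.10 in both), Slc4a7 (0.05), Slc50a1 (-0.04 and -0.05), Slc5a3 (0.09) and Slc7a11 (0.30). Apart from the offset, the cause of these shifts was not tested. Cultures of the 2 treatments with the same number are different cultures, and the labels do not say whether they were handled together. A block on these numbers gave 52 members in the cytoplasm (34.7%, against 35.1% of all genes) and 25 in the polysomes (16.7%, against 14%). Deviations of same-numbered cultures were correlated by 0.228 and 0.0455 in the cytoplasm and 0.296 and 0.00756 in the polysomes. Without the 3 technical replicates with conflicting labels, 36 passed in the cytoplasm (24%, against 27.6% of all genes) and 18 in the polysomes (12%, against 9.41%).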
